A study of Xenopus tropicalis with 4 samples.

Results

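The regions described here are places where the annotated ends of 2 or more protein-coding genes lie close together, where E2F1 was called in both of its libraries, and where no OTX1 peak was called. Overlapping peaks of the 2 E2F1 lists (at least 1 bp in common) were joined, joined spans with peaks of both lists were kept, and the midpoint of a span had to lie within 1 kb of an annotated end of at least 2 different genes. Of 13216 E2F1 regions, 8492 overlapped no peak of either OTX1 list, and 673 of these lay at paired gene ends, which is 5.09% of all E2F1 regions. The regions were chosen by the authors' peak calls in all 4 lists, so the presence and the height of E2F1 in them are a description and were not tested.

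Embryos of the frog Xenopus tropicalis were taken whole at stage 8, a blastula around the onset of zygotic transcription. One group, labelled E2F1 Rescue, had received E2F1 mRNA together with an MO (in this field a morpholino, an antisense oligonucleotide) and was precipitated with an HA antibody. The other, labelled OTX1 Rescue, had received OTX1 mRNA with an MO and was precipitated with a Myc-tag antibody. There were 2 libraries per group, each with its own peak list. Both antibodies recognise tags, so the maps concern protein made from injected mRNA as far as the labels tell, and how much of it there was beside the embryo's own protein is not given in these sources. Since all cells were pooled, a site bound in few cells cannot be told apart from a site bound weakly in many. Nothing in the labels says that the libraries of a group came from separate batches of embryos, so their spread may be technical.

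E2F1 is the founding member of a family of winged-helix factors that bind near transcription starts, pair with DP proteins and are held in check by the retinoblastoma family. It is best known as an activator of genes for S phase. Closely spaced gene ends occur where genes start back to back and share one promoter stretch, where they end tail to tail, or where one gene ends at the start of the next. Back-to-back starts, called divergent or bidirectional promoters, are common in vertebrate genomes and are typical of housekeeping genes, among them those of DNA repair and of mitochondria. The gene table used here has no strand, so these arrangements were not distinguished, and only the spacing of the ends is described. Coordinates are 1-based on xenTr10.

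The regions are given first in order of the mean percentile of their fold in the lists, for those at which at least 2 genes have a proper symbol and not only a locus number. The authors' fold is the ratio of summit signal to local background within a library, with 1 fragment added to each. This lowers the ratio most where the background is small. The fold is given for list 1 and then list 2. With it stands the summit pileup in fragments, recovered from the deposited fold and p and given without the added fragment. Between gon4l, a nuclear regulator of transcription, and syt11, a synaptotagmin of membrane traffic, the fold was 17.7 and 19.8 on 38 and 53 fragments (chromosome 8, 146601518 to 146602065). Between hsf2bp, which in mouse acts in meiotic recombination, and rrp1b, a nucleolar protein of ribosome assembly, it was 16.8 and 16.5 on 65 and 77 fragments (chromosome 2, 1560056 to 1560843). The region of mpdu1, which acts in protein glycosylation, and a neighbour with only a locus number stood between them, with 18.03 and 18.98. All 3 were among the top 1% of peaks in each list, as were 6 regions in all.

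The next 4 regions chosen in this way were as follows. At tatdn3, of a nuclease family, and nsl1, a subunit of the kinetochore's MIS12 complex, the fold was 15.0 and 14.8 (chromosome 5, 14380697 to 14381372). At smg5, a factor of nonsense-mediated mRNA decay, and tmem79, a membrane protein, it was 14.1 and 15.7 (chromosome 8, 141577131 to 141577922). At taf6, a subunit of the general factor TFIID, and mblac1, of the metallo-beta-lactamase fold, it was 14.4 and 14.5 (chromosome 3, 143795268 to 143796059). The first and the last of these had nearly the same fold but different depth, since taf6 and mblac1 had 48 and 55 fragments at the summit, against 81 and 101 at tatdn3 and nsl1. At eme1, the partner of the nuclease MUS81, and mrpl27, of the mitochondrial ribosome, the fold was 15.9 and 13.6, with a gap of only 29 bp between the genes (chromosome 10, 43896134 to 43896609).

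The remaining 6 of the 12 regions chosen in this way had values close to one another. At ndc80, which ties kinetochores to microtubules, and taf13, another TFIID subunit, the fold was 13.6 and 15.2 on 97 and 121 fragments, the tallest pileups among the regions named so far. Between wdr73 and piwil3, a member of the PIWI family that binds small germline RNAs, it was 13.3 and 15.6. Between cks1b, a small subunit of cyclin-dependent kinases, and shc1, an adapter of receptor tyrosine kinases, it was 13.4 and 15.1, and another gene known only by a locus number had an end in the same window. All of these had a higher fold in list 2 than in list 1. The region of polr1c, a subunit shared by RNA polymerases I and III, and yipf3, a Golgi protein, had 14.0 and 14.1. The region of selenok, a selenoprotein of the endoplasmic reticulum, and actr8, a subunit of the INO80 remodelling complex, had 12.7 and 16.3. That of gnl3, the nucleolar GTPase nucleostemin, and pbrm1, a subunit of the PBAF remodelling complex, had 12.7 and 15.4.

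**Figure D1:**
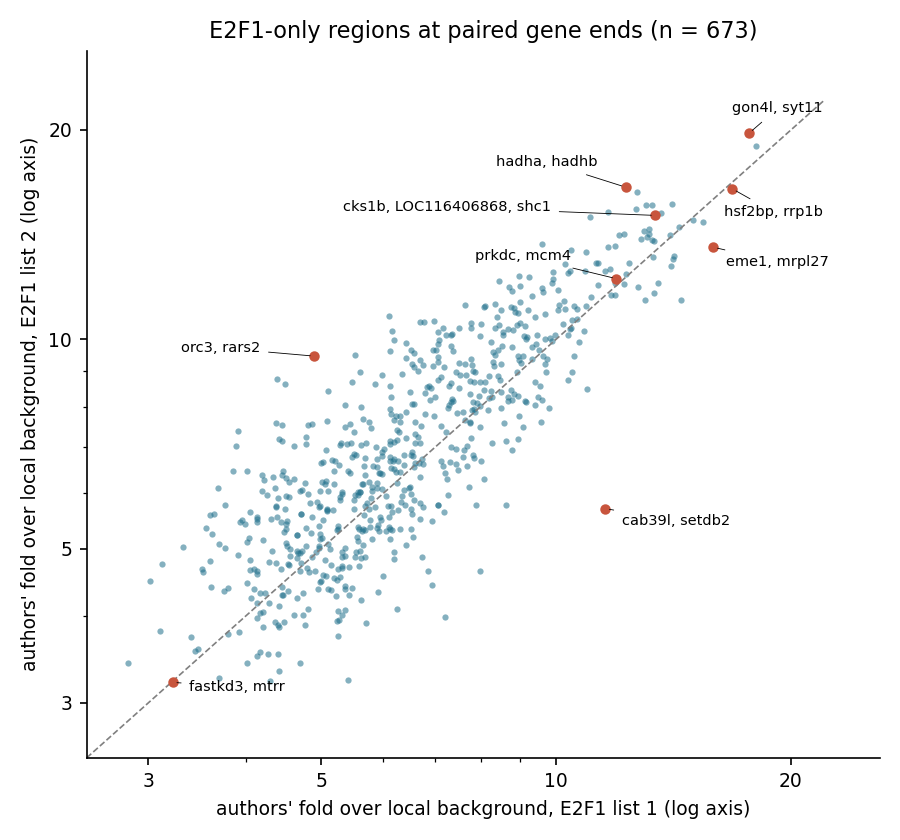
Each point is 1 of the 673 E2F1-only regions at paired gene ends, with the authors' fold over local background in E2F1 list 1 on the horizontal and in list 2 on the vertical log axis, and the dashed line marks equal values. The red points name 9 regions, from fastkd3 and mtrr (3.22 and 3.21) to gon4l and syt11 (17.7 and 19.8), and orc3 and rars2 (4.90 and 9.46) lie far above the line.

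Over all 673 regions the fold ran from 2.83 to 18.0 in list 1 with a median of 6.24, and from 3.21 to 19.8 in list 2 with a median of 6.78. The mean of the medians was 6.51 ± 0.379 (SD, n = 2 lists). The summits held 7 to 120 fragments (median 21) in list 1 and 8 to 146 (median 26) in list 2, so the weakest regions rest on fewer than 10 fragments. Counting error alone is then several fragments, and PCR copies are not independent molecules. The order of the weaker regions is therefore loose. The fold had a Spearman correlation of 0.824 between the lists across the 673 regions, which share the libraries and their depth, and of 0.776 across the 4568 E2F1-only regions at 1 gene's end.

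The lists differed more at single regions than in their medians. The fold was higher in list 2 at 445 of 673 regions (66.1%), close to the 64.7% of E2F1-only regions at 1 gene's end. It was more than 1.5 times higher in list 2 at 36 regions and more than 1.5 times higher in list 1 at 6. The region of orc3, a subunit of the origin recognition complex, and rars2, the mitochondrial arginyl-tRNA synthetase, had 4.90 and 9.46. That of cab39l, a scaffold of the kinase LKB1, and setdb2, of a family of histone methyltransferases, had 11.6 and 5.71. Both were chosen after their values were seen.

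The 5 regions of lowest mean percentile, whatever the symbols of their genes, were as follows. The lowest region, at fastkd3, a mitochondrial RNA-binding protein, and mtrr, methionine synthase reductase, had 3.22 and 3.21 on 10 and 9 fragments. The region between col4a6 and col4a5, which encode chains of collagen IV, had 3.69 and 3.26 on 12 and 10 fragments. That of alkbh4, a demethylase, and lrwd1, which associates with the origin recognition complex, had 3.45 and 3.56 on 26 and 29 fragments, above the median pileup of the 673 regions. The other 2 of the lowest 5 involved genes with a locus number. One of them, beside rnft1, had 3.48 and 3.59, and the other, between a pair of such genes, had 2.83 and 3.42. These values lie below the lower quartile of the regions (5.02 and 5.35) in both lists.

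The regions had much the same height as E2F1-only regions at 1 gene's end. The median fold of E2F1-only regions at 1 gene's end was 6.06 and 6.62, so that of the paired ends was 1.03 and 1.02 times as high. In the summit pileup the ratio was 1.05 and 1.08, and in peak width (587 and 614 bp against 559 and 590 bp) it was 1.05 and 1.04. The difference had the same direction in both lists, but 2 libraries allow no test that could pass a threshold. The 256 E2F1 regions at paired ends that overlapped an OTX1 peak were taller, with a median fold of 6.84 and 7.36. The E2F1-only ones had 0.912 and 0.920 times that fold and 0.824 and 0.853 times the summit pileup. Their peak width was 0.845 and 0.842 times that of the overlapping regions. The overlap rule takes no account of width, and the part of width in this difference was not tested. The 3251 E2F1-only regions away from gene ends were lower, with a median fold of 5.42 and 5.66 and a median pileup of 16 and 18 fragments, against 21 and 26 at paired ends. The median local background moved with the height, at 2.52 and 2.86 fragments in the E2F1-only regions at paired ends, 2.41 and 2.76 at 1 gene's end, and 2.81 and 3.17 in the regions overlapping OTX1. Its part in the fold was not tested.

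**Figure D2:**
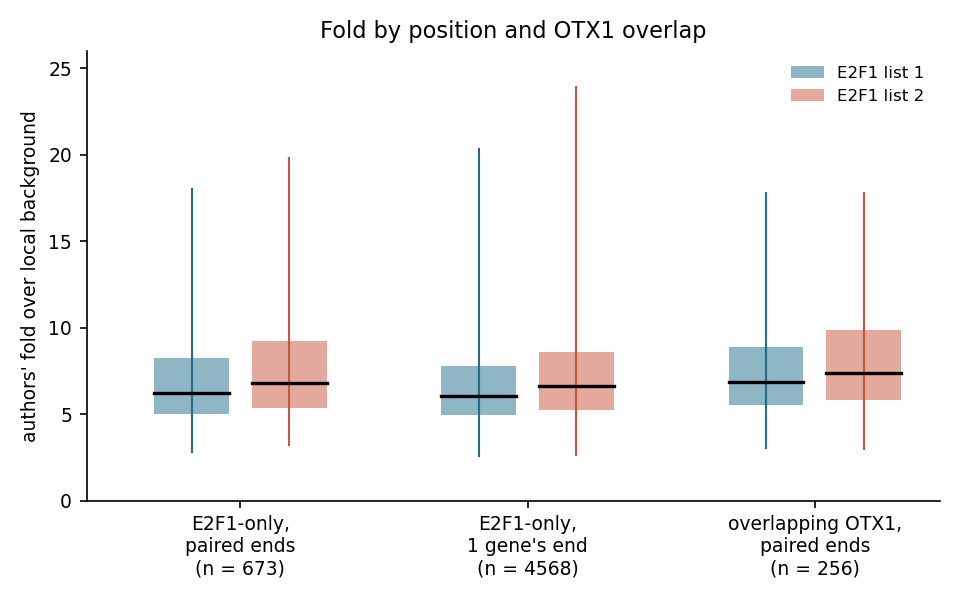
The vertical axis is the authors' fold over local background, with a box from the lower to the upper quartile, a black bar at the median and a line from the lowest to the highest region, for E2F1 list 1 (blue) and list 2 (red). The medians of the 673 E2F1-only regions at paired ends (6.24 and 6.78) lie between those at 1 gene's end (6.06 and 6.62) and those overlapping OTX1 at paired ends (6.84 and 7.36), and the ranges overlap almost wholly.

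Paired gene ends took a larger share of the E2F1 lists than of the OTX1 lists, counted over all peaks of a list before any overlap with the other factor. The share was 5.89% of 16770 and 5.20% of 20385 E2F1 peaks, against 1.05% of 27755 and 0.949% of 29098 OTX1 peaks, so the groups did not overlap. The means were 5.54% ± 0.492 and 1.0003% ± 0.0732 (SD, n = 2 lists each). The difference of 4.54 percentage points had a two-sided exact permutation p of 0.333, the smallest that 2 against 2 libraries allow. Ends of 1 gene took 37.4% of E2F1 and 8.17% of OTX1 peaks on average, a difference of 29.2 points with the same p, so the contrast is not one of paired ends alone. The factors also differed in antibody and injected mRNA, which cannot be told apart from the factor. The threshold of the calls differed too. With a −log10 q of at least 5 in every list the difference was 5.97 points, and with lists of equal size 5.11 points.

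E2F1 peaks at paired ends recurred in the other E2F1 list more often than those elsewhere. Of the peaks at paired ends, 95.3% of list 1 and 88.1% of list 2 overlapped a peak of the other list. At 1 gene's end these shares were 91.1% and 81.1%, and away from gene ends 69.5% and 53.6%. Taller peaks are found again more easily, and peaks away from ends were lower, so the part of height in this order was not tested. The OTX1 peaks at paired ends did not show this order, with 52.0% and 55.1% recurring there against 65.4% and 62.0% away from ends.

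Of all 929 E2F1 regions at paired ends, 72.4% overlapped no called OTX1 peak, which does not show that OTX1 was absent. The other 256 (27.6%) overlapped an OTX1 peak, 111 of them in both OTX1 lists and 145 in 1 list alone. Among all E2F1 regions the overlapping share was 35.7%, with 22.5% at 1 gene's end and 49.1% away from gene ends. Of the 673 regions, 57 (8.47%) had an OTX1 peak within 1 kb of their edges, although by the rule none touched it. Within 5000 bp there were 189 (28.1%), and within 10000 bp 307 (45.6%). Other E2F1-only regions were not counted in this way, so whether these shares are low was not tested.

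In most regions the nearest 2 gene ends faced each other across a gap, which the rule limits to 2 kb. The share of gaps and of overlaps among all closely spaced gene ends was not counted. A gap was present in 542 of 673 regions (80.5%), in which one gene ended to the left and the other began to the right on the map. The gap had a median of 150 bp, with quartiles of 80 and 290 bp and a range of 1 to 1787 bp. It was at most 200 bp in 330 regions (60.9%) and at most 500 bp in 480 (88.6%). In 130 regions the genes overlapped in the annotation, by a median of 98.5 bp between the nearest ends, and in 1 region one gene lay inside the other. At brca1 and its neighbour nbr1 the annotated gap was 1 bp, and the fold was 6.35 and 5.95. A distance between annotated ends depends on how far the gene models reach, so a gap of few bp and a short overlap are nearly the same thing.

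Such gaps could be compared with every gap of up to 2 kb between neighbouring protein-coding genes on the 10 chromosomes, 2626 in number. An E2F1 region had its midpoint within 500 bp of the centre of 758 of these gaps (28.9%), and an E2F1-only region did so at 541 (20.6%). The share depended on the width of the gap. It was 52.9% for gaps of 1 to 100 bp, 54.9% for 101 to 200 bp and 53.5% for 201 to 300 bp. From there it went down to 37.9% at 301 to 500 bp, 15.8% at 501 to 1000 bp and 2.64% at 1001 to 2000 bp.

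Part of the lower share follows from the measure, since the window around the centre of a gap over 1 kb reaches neither end. Counted within 500 bp of either end, the shares were 52.9%, 55.1%, 53.9%, 39.1%, 18.6% and 14.9% in the same order of width. Gene ends with no other gene's end within 2 kb had an E2F1 region within 500 bp in 14.1% of 36864 cases and an E2F1-only region in 11% of them. A gap holds the ends of 2 genes, and starts and stops cannot be told apart in this table, so the shares of gaps and of single ends are set side by side without a test. For E2F1-only regions alone, the shares by width were 37.1%, 40.6%, 40.6%, 24.5%, 11.8% and 1.49%.

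**Figure D3:**
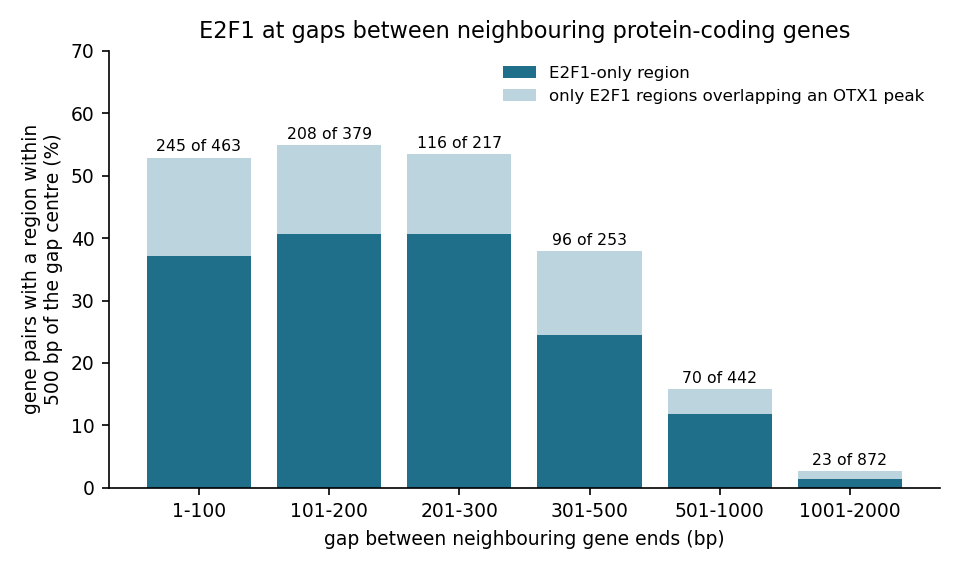
Bars give the percentage of neighbouring gene pairs with an E2F1 region whose midpoint lies within 500 bp of the gap centre, by width of the gap in bp, with E2F1-only regions in dark blue and pairs that have only regions overlapping an OTX1 peak in light blue. The first 3 bars stand at 52.9% to 54.9% and the last at 2.64%, and the numbers above the bars are pairs with a region of all pairs.

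The E2F1 summits sat close to these gaps but often beside them. The rule puts the midpoint of each region within 1 kb of both gene ends, so part of this closeness follows from it. In the 542 regions with a gap, the summit lay a median of 127 bp from the middle of the gap in list 1 and 112 bp in list 2, and within 250 bp in 79% and 81.7%. It fell inside the gap in 192 regions (35.4%) in list 1 and in 211 (38.9%) in list 2. For gaps of at least 200 bp, 118 and 127 of 214 summits did so. Narrow gaps of 1 to 100 bp held the summit in 12.7% and 16.8% of 173 regions, with a median distance of 106 and 85.5 bp from the middle.

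The lists agreed on the side in many regions. In 135 regions (24.9%) the summit lay in the gap in both lists, and in 239 (44.1%) it lay inside the same gene in both. In 35 (6.46%) the lists placed it in different genes, and in 133 (24.5%) in the gap in 1 list and inside a gene in the other. The summits of the lists lay a median of 66 bp apart over all 673 regions, within 100 bp in 435 of them (64.6%). Distances of this size are close to what separates the middle of a gap from a gene, so the side is uncertain for single regions.

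**Figure D4:**
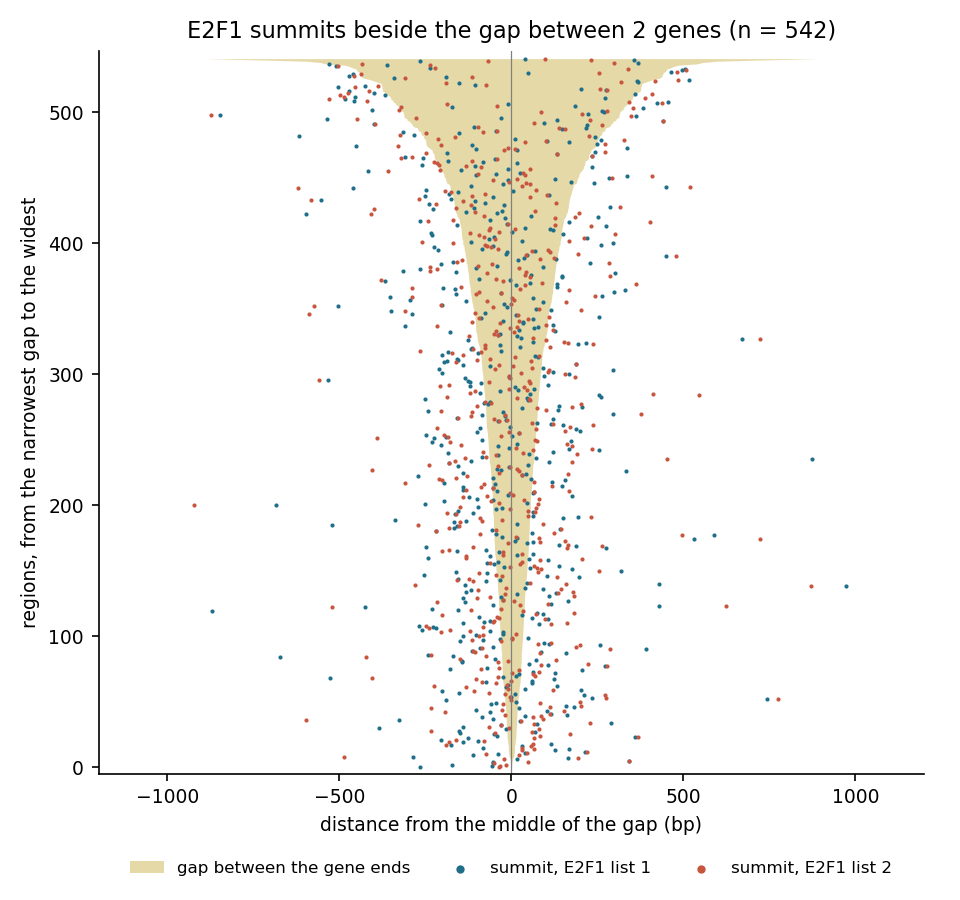
Each row is 1 of the 542 regions with a gap between its nearest gene ends, ordered from the narrowest gap at the bottom to the widest at the top, and the horizontal axis is the distance in bp from the middle of the gap. The shaded band is the gap and the points are the summits in E2F1 list 1 (blue) and list 2 (red), of which 79% and 81.7% lie within 250 bp of the middle.

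Examples show the range of these positions. Between eme1 and mrpl27, whose gap is 29 bp, the summit lay 29.5 bp to the left of the middle in both lists. Between smg5 and tmem79, with a gap of 542 bp, it lay 44 and 41 bp to the left of the middle. In the latter region both summits were well inside the gap. Between prkdc, the catalytic subunit of DNA-dependent protein kinase, and mcm4, a subunit of the replicative helicase, the gap was 650 bp. The summits there lay 382 and 353 bp to the right, only just past the annotated end of mcm4, so the side is uncertain. At tatdn3 and nsl1, whose gap is 267 bp, both summits lay inside nsl1, at 450.5 and 479.5 bp to the right of the middle. The sides here are those of the map and say nothing of strand.

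A pair of gaps carried 2 separate regions, one toward each gene. Between bcl7b, a subunit of SWI/SNF remodelling complexes, and tbl2, with a gap of 689 bp, the region on the tbl2 side had a fold of 5.61 and 8.98 and that on the bcl7b side 4.14 and 4.18. Their summits lay 456.5 and 341.5 bp to the right and 457.5 and 418.5 bp to the left of the middle. Between atad2b, a bromodomain ATPase, and ubxn2a, with a gap of 702 bp, the regions had 7.80 and 9.18 on the atad2b side and 5.24 and 3.93 on the ubxn2a side. The 673 regions therefore belong to 671 pairs.

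E2F1 at the far ends of these genes was counted too. Among the genes of at least 10 kb beside a gap, 13 of 706 (1.84%) had an E2F1 region of any kind within 1 kb of the end away from the gap. Gene ends with no other gene's end within 2 kb had an E2F1 region in 14.1% of 36864 cases, at the narrower distance of 500 bp. Starts and stops were not distinguished, and the count was not tested against other gene ends. Of the 10 genes that counted for 2 regions, rad1, a subunit of the 9-1-1 checkpoint clamp, had one region toward brix1, a ribosome assembly factor (7.53 and 8.90), and one toward dnajc21, a cochaperone (6.197 and 9.97). Tkfc, a kinase of sugar metabolism, had one toward ddb1, which senses DNA damage (7.502 and 9.25), and one toward tmem138 (6.35 and 8.90). Depdc5, of the GATOR1 complex that restrains mTORC1, had one toward ywhah, a 14-3-3 protein (5.24 and 5.34), and one toward prr14l (4.01 and 5.12).

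The paired ends belonged to 1340 protein-coding genes, 6.16% of 21749. Of the 5658 genes with another gene's end within 2 kb, which are the ones that could have such a region, 23.7% had one. In 570 regions at least 2 of the genes have a proper symbol, in 82 only 1 has, and in 21 none has. The genes had a median length of 14232.5 bp, against 21669.5 bp for the genes of E2F1-only regions at 1 gene's end and 12890 bp for all genes with a neighbour's end within 2 kb. The lists that follow were drawn up with results of these data known, so their counts are set beside the 6.16% and the 23.7% as a description.

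Genes of DNA replication were frequent, and not at paired ends alone. An E2F1-only region at an end with no partner was found for 30 of 66, against 4526 of all 21749 protein-coding genes. Of 66, 19 (28.8%) had a region at paired ends, and these were 59.4% of the 32 with a neighbouring end. The median fold over their regions was 6.69 and 7.67, close to that of all 673. The highest were pole3, a small subunit of DNA polymerase epsilon, beside c8h9orf43 (13.1 and 14.0), mcm4 beside prkdc (11.9 and 12.2), and gins4, of the GINS complex of the replicative helicase, beside chmp7 (8.44 and 12.1). Of the 6 subunits of the origin recognition complex, orc1 beside prpf38a (6.96 and 9.64), orc2 beside c9orf64 (5.66 and 7.67), orc3 beside rars2, orc4 beside mbd5 (6.12 and 9.62) and orc6 beside vps35 (7.21 and 6.43) were included. Gins1 and gins2 were too, beside uqcc2 (8.43 and 8.85) and cfap157 (4.77 and 7.24). The lowest by mean percentile was rpa2, of the single-strand binding protein RPA, beside themis2 (4.45 and 4.41, 10 fragments in each list). In E2F1 list 1 another replication gene had a lower fold, 4.38.

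Genes of DNA repair were frequent at paired ends too. An E2F1-only region at 1 gene's end was found for 20 of 81, against 4526 of all 21749 protein-coding genes. Of 81, 23 (28.4%) had a region at paired ends, 52.3% of the 44 with a neighbouring end, with a median fold of 6.54 and 8.26. The list also holds toe1, an RNA deadenylase, and npat, an activator of histone genes, as neighbours of mutyh and atm. Without these, a choice made after seeing the data, 22 of 79 genes had a region (27.8%, or 51.2% of the 43 with a neighbouring end). The double-strand break and crossover genes led, with eme1 beside mrpl27 first and mus81, its nuclease partner, beside the actin-severing factor cfl1 (11.7 and 12.6) second. The latter rested on 120 and 146 fragments, the most of all 673 regions in either list. Prkdc counted here as the neighbour of mcm4. Further down came the base excision gene mutyh beside toe1 (9.49 and 8.26), nbn of the break-sensing MRN complex beside decr1 (6.54 and 9.22), and the crosslink nuclease dclre1a beside nhlrc2 (6.51 and 9.64).

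Of 56 genes of the cell cycle and the E2F-RB network, 7 (12.5%) had a region at paired ends, 43.8% of the 16 with a neighbouring end. Their median fold was 7.82 and 8.57. Behind cks1b stood the checkpoint kinase chek2 beside hscb (8.43 and 9.64), and the mitotic kinase aurka beside cstf1, a factor of mRNA 3′ processing (9.11 and 8.14). The spindle checkpoint kinase ttk (7.82 and 9.004), ccne1 (6.12 and 8.57), cdc25c (5.11 and 8.42) and e2f4, itself of the E2F family (5.80 and 6.06), made up the rest. More genes of this list, 26 of 56, had an E2F1-only region at an end with no partner. Over all 21749 protein-coding genes, 4526 had one there and 1340 had one at paired ends.

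The genes of gene expression were mixed. Core transcription genes had 8 of 47 (17%, or 44.4% of those with a neighbouring end), with taf6 and taf13 at the top and polr2g, a subunit of RNA polymerase II, beside zbtb3 next (5.85 and 8.63). Splicing genes had 15 of 86 (17.4%, or 46.9%), led by sf3a1, of the U2 snRNP, beside ccdc157 (10.7 and 9.92), prpf18 beside aimp2 (9.31 and 9.38), and snrpg, of the Sm ring, beside fam136a (8.30 and 9.28). Cytosolic ribosomal proteins had 9 of 77 (11.7%, or 37.5%), led by rps27a beside clhc1 (8.51 and 9.76), rpl4 beside zwilch (9.60 and 8.18), and rps7 beside rnaseh1 (7.87 and 8.97). The median folds of these lists were 5.70 and 6.43, 6.59 and 6.81, and 6.41 and 7.86. At 1 gene's end, 18 of 47 core transcription, 35 of 86 splicing and 34 of 77 cytosolic ribosomal protein genes had an E2F1-only region. Over all 21749 protein-coding genes, 4526 had one there.

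Genes of mitochondrial function came up in many pairs, and so did aminoacyl-tRNA synthetases, not all of which are mitochondrial. Mitochondrial ribosomal proteins had 18 of 76 (23.7%, or 47.4% of those with a neighbouring end), with mrpl55 beside guk1 (9.31 and 11.5) and mrpl43 beside twnk, the mitochondrial DNA helicase (10.4 and 8.74), behind mrpl27. Oxidative phosphorylation genes had 18 of 97 (18.6%, or 40.9%). Among them, ndufv3, of complex I, beside wdr4, of a tRNA methyltransferase (14.0 and 12.7), was well above the next, the assembly factor ndufaf5 beside esf1 (8.30 and 9.59) and ndufb7 beside rsl1d1 (8.67 and 8.26). Aminoacyl-tRNA synthetases had 9 of 35 (25.7%, or 52.9%), led by the mitochondrial yars2 beside cdpf1 (11.3 and 11.96), aars1 beside exosc6 (7.23 and 10.1) and mars2 beside aifm1 (7.25 and 6.29). The median folds were 5.97 and 6.76, 6.01 and 6.397, and 5.31 and 6.29. At 1 gene's end, an E2F1-only region was found for 24 of 76, 39 of 97 and 12 of 35 genes in the same order. Over all 21749 protein-coding genes, 4526 had one there.

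At paired ends, the proteasome and chaperone lists came closer to the 23.7% over all genes. Proteasome genes had 6 of 45 (13.3%, or 27.3% of those with a neighbouring end), led by the assembly chaperone psmg2 beside cep76 (9.89 and 12.5), the ATPase subunit psmc4 (9.68 and 10.01), and the assembly chaperone psmg4 (8.56 and 10.2). Chaperonins and heat shock proteins had 10 of 87 (11.5%, or 27.8%), with the cochaperone dnaja1 beside aptx (10.1 and 11.02), the prefoldin subunit pfdn2 beside nit1 (8.50 and 11.01), and dnajb13 beside znf16 (8.97 and 9.34) in front. Nuclear pore genes stood higher, with 5 of 27 (18.5%, or 41.7%), and nup155 beside wdr70 (10.3 and 12.8) highest, followed by nup62 beside pih1d3 (8.50 and 7.98) and tpr beside odr4 (7.75 and 8.33). At 1 gene's end, 22 of 45 proteasome, 32 of 87 chaperone and 11 of 27 nuclear pore genes had an E2F1-only region. Over all 21749 protein-coding genes, 4526 had one there, so none of these lists was near that share at 1 gene's end.

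At paired ends, histone genes and developmental regulators stood lowest among the lists. Of 25 histone genes with a symbol, 18 had a neighbour's end within 2 kb but 1 had a region at paired ends (5.56% of the 18): h2bc11, with a gap of 1787 bp to its neighbour, the widest of all, and folds of 4.19 and 6.06. Of the 124 hox, forkhead, sox, gata and wnt genes none had one, including none of the 24 with a neighbour's end within 2 kb. Of these 124 genes, 38 had an E2F1-only region at 1 gene's end, against 4526 of all 21749 protein-coding genes. Of the 25 histone genes, 6 had one. E2F1 was thus called at some of these genes, and neither list was below the share over all genes at 1 gene's end. With a window of 2 kb in place of 1 kb the counts at paired ends were 6 histone genes and 3 developmental regulators. In E2F1 list 1 alone or list 2 alone 1 developmental regulator was counted, and without OTX1 list 1 as well. For histones, E2F1 list 1 alone gave 3.

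**Figure D5:**
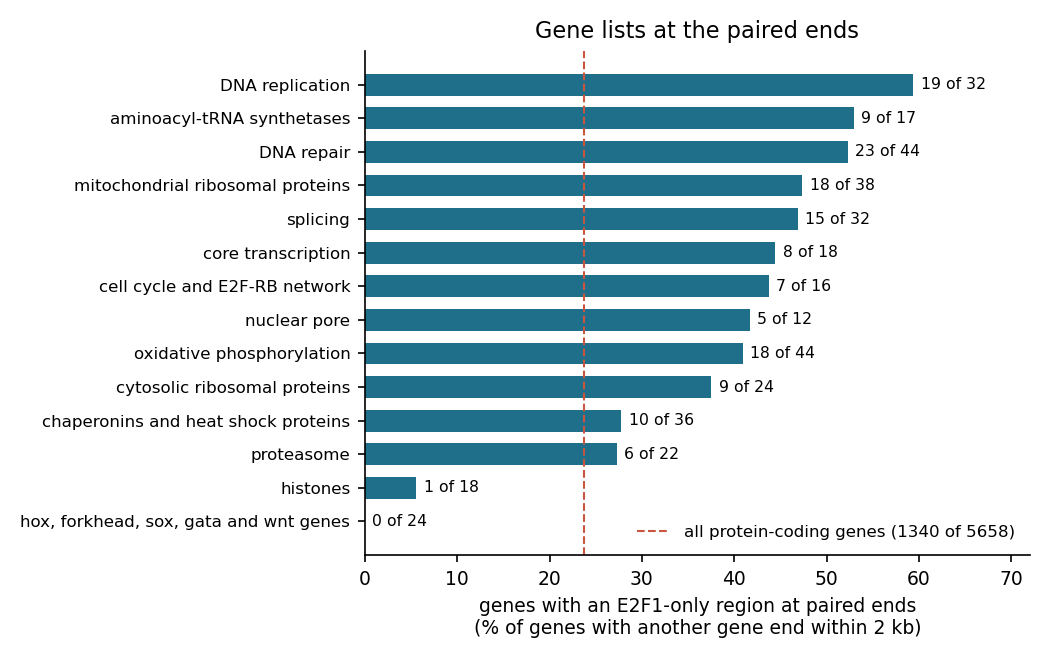
Bars give, for each list, the percentage of genes with an E2F1-only region at paired ends among those that have another gene's end within 2 kb, with the numbers beside each bar. The dashed line is the same percentage over all protein-coding genes (23.7%), and the lists run from DNA replication at 59.4% down to the hox, forkhead, sox, gata and wnt genes at 0.

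Some regions joined members of the lists or related genes. Of the 1340 genes at the regions, 148 belonged to a list. These were 15.9% of the 929 genes in any list, or 39.3% of the 377 with a neighbouring end. Over all protein-coding genes the shares were 6.16% and 23.7%. In 9 regions both neighbours did, among them mutyh and toe1, which was listed as the neighbour of mutyh. How many such regions the list sizes alone would give was not computed. Besides those named, the 9 included rad1 and dnajc21, dnaja1 and aptx, mrpl32 and the proteasome subunit psma2 (7.13 and 7.51), and ndufb5 and mrpl47 (6.13 and 7.07). Some regions between genes of like symbol are given as examples chosen after their values were seen. Hadha and hadhb, which encode the alpha and beta subunits of the mitochondrial trifunctional protein, had 12.3 and 16.5 over a gap of 250 bp (chromosome 5, 154400095 to 154400690). The zinc finger genes znf646 and znf668 had 10.5 and 10.7. Evc and evc2, which act at the cilium base in hedgehog signalling, had 4.14 and 3.97, and the collagen pair col4a6 and col4a5 was among the lowest regions above.

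Of 16 pairs known as neighbours with a shared promoter stretch in mammals, 5 had ends within 2 kb in the frog table. Prkdc and mcm4 and also mutyh and toe1 had an E2F1-only region. The regions of fen1, the flap nuclease of lagging-strand synthesis, with tmem258, and of surf1 with surf2 overlapped an OTX1 peak. Hspd1 and hspe1, the mitochondrial chaperonin and its partner, had a gap of 515 bp and no E2F1 region of both lists near both ends. Of the others, 8 had ends farther apart, 2 were on different chromosomes, and 1 had a symbol that was not in the table.

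A region with ends of 3 genes in the window was seen in 4 cases. One was that of cks1b and shc1, described above. In 2 others all genes had only a locus number, and the one on chromosome 3 had 5.91 and 4.33. The regions were spread over all 10 chromosomes, from 19.1 per 1000 protein-coding genes on chromosome 7 to 40.1 on chromosome 4. As a percentage of the gaps of up to 2 kb, their number ran from 20.1% on chromosome 7 to 31.8% on chromosome 4. Not every region had a gap.

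Just inside the distance limit, the second gene's end lay 994 bp from the midpoint at naa60 and c7orf26 (4.87 and 5.55), 984 bp at a pair with locus numbers (3.40 and 3.73), and 980 bp at col4a6 and col4a5. Just outside it lay 1004.5 bp away at a pair with locus numbers (4.90 and 5.50), 1025.5 bp at mybl2, the cell cycle factor B-Myb, and its neighbour (7.39 and 11.5), and 1029 bp at glmp and cct3 (7.20 and 7.16).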

How the data were processed

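Chromatin immunoprecipitation followed by sequencing gave 1 deposited peak list per library, 2 for E2F1 and 2 for OTX1. Of the tools, MACS2 2.2.7.1, Bowtie2 2.4.5, deepTools and fastp appear in the submitters' processing notes with no role stated. These sources do not say whether a control library was used. Per peak, the authors deposited a score (10 times the −log10 q), the fold (a ratio to local background), the p-value and q-value as −log10, and the summit offset. The lowest −log10 q was 1.31 and 1.33 for E2F1 and 2.00 and 2.01 for OTX1. The build name is in the OTX1 peak names, and gene ends came from RefSeq's table of UCB_Xtro_10.0.

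Read totals are not in the lists, so depth is unknown beyond the summit. Pileups were solved from fold and p as whole numbers, with a misfit of at most 4.56e-05 in −log10 p over the 13216 regions. Where a list had several peaks in a region, the peak of highest fold was used, which touched 15 of the 673 regions. Joining, overlap and distances were tested on simulated intervals. Python 3.11.15, pandas 2.3.3 and scipy 1.17.1 were used. The only tests were exact permutations of the 4 libraries, for the shares at paired ends and at 1 gene's end. For paired ends a sign-flip form with libraries paired by replicate number was also run. Named regions were the 12 of highest mean fold percentile at which at least 2 genes have a symbol other than a locus number, the 5 of lowest, up to 3 per gene list, known pairs, and those at the distance limit; others were chosen after their values were seen. The regions and lists were chosen with earlier results of these data known. The planned orientation and motif counts were not made, since strand and sequence were not used here, and spacing took the place of orientation. A few regions are not reported here.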

Additional observations from a re-analysis of the deposited data

How the results depend on the processing

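The number of E2F1-only regions at paired ends was 673 and stayed within 1.5 times that under every alternative run, from 597 (window of 500 bp) to 822 (only OTX1 regions of both lists remove a region). Leaving out 1 library gave 737 to 794. The difference in the share of peaks at paired ends, 4.54 points, ran from 4.18 (500 bp) to 5.97 (−log10 q of at least 5), and from 4.19 to 4.89 without 1 library. With the replicate block it was 4.54 points with an exact sign-flip permutation p of 0.5, the smallest that 2 pairs allow, and nothing in the labels pairs the libraries of the factors. The median fold of 6.51 was 7.21 at a −log10 q of at least 5, a setting that drops weak peaks, and 6.12 to 6.39 in single E2F1 lists, an alternative chosen after seeing the data. The share of regions with a gap was 80.5% and 80.2% to 81.6% under the alternatives, which are not independent of one another. The number of list genes with a region was 148 of 929 and ran from 136 to 176. By list, the nuclear pore had 8 genes with a window of 2 kb against 5, and histones had 0 with a window of 500 bp and under the stricter q. The alternatives for motifs were not run.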
